A study of Mus musculus with 16 samples.

Results

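The 10 genes described here encode 7 matrix metalloproteinases (MMPs: Mmp2, Mmp7, Mmp8, Mmp12, Mmp13, Mmp14 and Mmp19) and 3 of their tissue inhibitors (TIMPs: Timp1, Timp2 and Timp3). They were taken by name, with earlier results of these data known, and all 10 were found among the 55401 genes of the deposited table. RNA was measured by sequencing in whole liver of wild-type mice, in 16 libraries that fall into 8 groups of 2. The control group received no thioacetamide, and the TAA group was taken after 8 weeks of thioacetamide, a liver toxin used to produce fibrosis, at 300 mg/L in drinking water. The other 6 groups had the same 8 weeks of thioacetamide and then recovered for 1, 2 or 4 weeks, either without choline or with choline chloride at 3.5 g/L in the water. Strain, sex and age are not given in the labels. They also do not say whether both libraries of a group stem from different mice, so a p-value covers the spread among these libraries alone, and that spread may be technical.

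MMPs are zinc-dependent proteases that cut collagens, elastin, proteoglycans and other proteins outside the cell. Most are secreted as inactive proenzymes whose propeptide must be removed, and TIMPs bind the active site and block it, so the amount of RNA is not the amount of active enzyme. In the fibrotic liver the balance of both families is known to bear on whether scar collagen stays or is removed. RNA levels alone were measured here, and in whole liver fewer cells of a type and less RNA per cell cannot be told apart.

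Library totals ran from 23.1 to 33.6 Mcounts (mega-counts). Levels are given as CPM, the usual counts relative to library size, here scaled by TMM, a normalisation that leaves out genes with extreme ratios. Of the 10 genes, 9 passed the filter on low counts and were tested among 17292 genes. Mmp8 did not pass it. A gene is called at a Benjamini-Hochberg adjusted p under 0.05 in edgeR's quasi-likelihood test. Albumin and other hepatocyte markers summed to between 82200 and 133000 CPM in every library, as the label liver implies. The nuclear long RNAs Malat1 and Neat1 summed to 7950 CPM or more in 14 libraries, up to 20400, but to 183 CPM in the first control replicate and to 1130 CPM in the first TAA replicate. Where values without both of these libraries are given, the fit holds 1 control and 1 TAA library.

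Mmp7, Mmp8, Mmp12 and Mmp13 lie within one cluster of 10 MMP genes on chromosome 9 (GRCm38, 7272514 to 7699585, 427.1 kb). The cluster runs from Mmp13 (7272514 to 7283331) over Mmp12 (7344397 to 7358464) and Mmp8 (7558456 to 7568485) to Mmp7 (7692090 to 7699585), all on the forward strand. Of its 10 genes, 4 had no count in any library: Mmp1a, Mmp1b, Mmp10 and Mmp20. The promoters of Mmp7, Mmp12 and Mmp13 are shown because these neighbours were all called higher in TAA. Each is the RefSeq sequence from 250 bases before to 50 bases after the gene start that the deposited table also gives (GRCm38.p6), and capitals mark the letters TGANTCA, the site of the AP-1 transcription factors, searched on both strands.
Mmp7, chr9:7691840-7692139, forward strand: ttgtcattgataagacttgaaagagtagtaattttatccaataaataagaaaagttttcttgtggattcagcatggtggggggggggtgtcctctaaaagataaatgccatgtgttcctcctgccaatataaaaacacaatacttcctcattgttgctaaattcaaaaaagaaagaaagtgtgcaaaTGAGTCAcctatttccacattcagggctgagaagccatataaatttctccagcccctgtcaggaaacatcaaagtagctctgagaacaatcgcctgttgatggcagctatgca
Mmp12, chr9:7344147-7344446, forward strand: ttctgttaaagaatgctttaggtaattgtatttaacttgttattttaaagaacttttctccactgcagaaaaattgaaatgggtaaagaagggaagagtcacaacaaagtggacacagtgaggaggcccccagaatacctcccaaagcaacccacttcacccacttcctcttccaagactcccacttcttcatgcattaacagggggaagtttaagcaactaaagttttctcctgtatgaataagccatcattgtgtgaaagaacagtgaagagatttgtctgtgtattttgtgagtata
Mmp13, chr9:7272264-7272563, forward strand: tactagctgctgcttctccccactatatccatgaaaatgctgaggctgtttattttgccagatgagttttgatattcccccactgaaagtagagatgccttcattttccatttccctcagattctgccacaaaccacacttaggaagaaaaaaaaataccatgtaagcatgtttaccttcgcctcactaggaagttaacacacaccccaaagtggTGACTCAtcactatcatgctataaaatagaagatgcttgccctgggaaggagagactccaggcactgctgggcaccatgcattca
The AP-1 letters occurred once in Mmp7, as TGAGTCA 63 bases before the start, and once in Mmp13, as TGACTCA 35 bases before the start. They did not occur in these windows of Mmp8, Mmp12, Mmp14, Timp1, Timp2 or Timp3, and 7.8% of all 32851 promoters in the table hold them. The next letters were also searched on both strands. TATAAA occurred in Mmp7 and Mmp13, in Mmp8 only on the strand opposite to the gene, and in 13.6% of all promoters. GGGCGG, the core of the SP1 site, occurred in Mmp14, Timp1, Timp2 and Timp3 and in 35.7% of all promoters. These are matches of letters and say nothing of whether a factor was bound. Promoters of Mmp2 and Mmp19 were not analysed here.

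**Figure D1:**
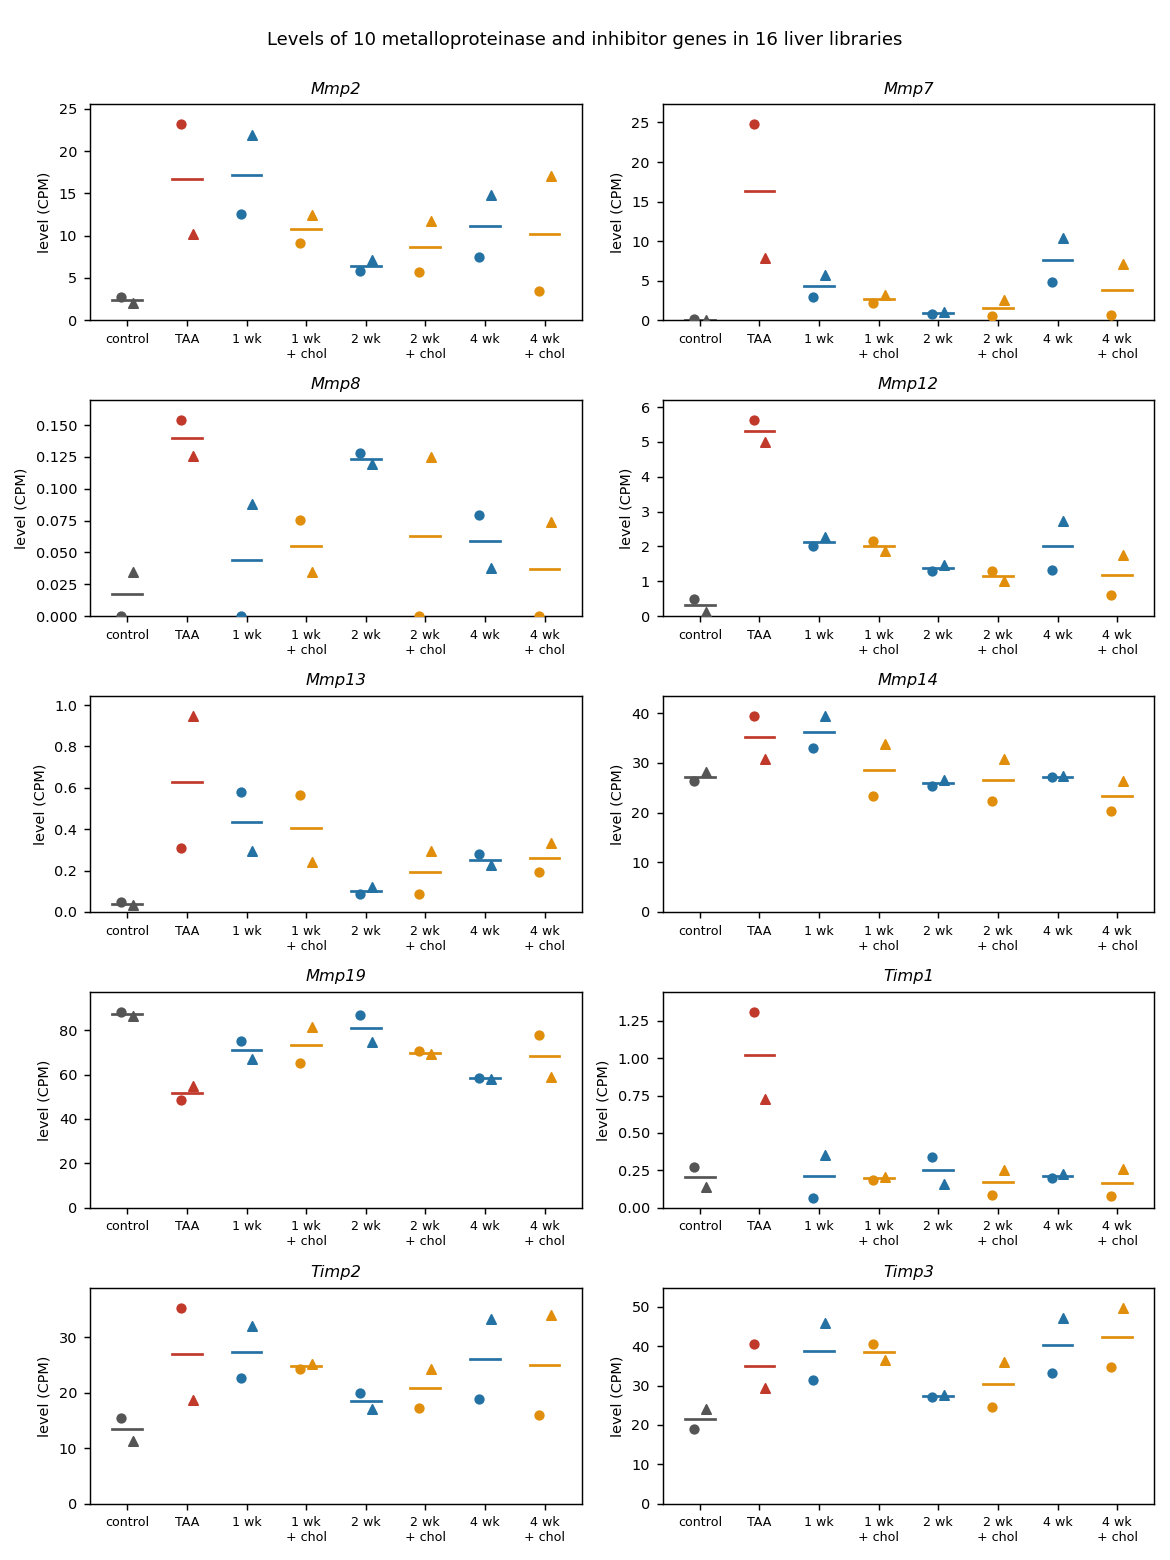
Levels in CPM (vertical axes, linear, each with its own scale) of the 10 genes in the 8 groups; circles are replicate 1, triangles replicate 2 and bars the mean of both, and "+ chol" marks recovery with choline. Mmp7 and Mmp12 are highest in both TAA libraries apart from one 4-week library of Mmp7 at 10.4 CPM, and Mmp19 is lowest in both TAA libraries.

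Thioacetamide was compared with control first, to ask which proteases and inhibitors differ in the injured liver. Mmp2, Mmp7, Mmp12 and Mmp13 were higher after thioacetamide and Mmp19 was lower. Mmp14 and the 3 inhibitors did not pass the threshold. The 5 called genes of 9 tested stand against 21% of all tested genes called in this comparison. By direction, 4 of 9 were called higher, against 10% of all tested genes, and 1 of 9 lower, against 11%. Both TAA libraries lay above both controls in 8 of the 9 genes and below them in 1, against 25.6% and 20.3% of all tested genes. The median log2 fold change of the 9 genes was 2.32, against 0.03 over all tested genes. Mmp7, Mmp12, Mmp13 and Timp1 passed the filter through groups where they were high. Timp1 also holds the median, so these counts and the median are descriptions. The same holds for the p-values of these 4 genes in comparisons with TAA.

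Mmp7 encodes matrilysin, a small protease made by epithelial cells, those of the bile ducts included. It was nearly absent from control liver, at 0.0914 and 0.0342 CPM, and stood at 24.8 and 7.87 CPM after thioacetamide. The groups did not overlap, and TAA replicate 1 was the higher of the pair. Summed over libraries, 1215 counts stood against 3 in control, a ratio of 293 with a 95% interval from 100 to 1420 that covers counting error only. The fitted log2 fold change was 8.01 ± 1.39 (SE, 2 libraries per group, edgeR adjusted p = 0.00257). Its size depends on the prior count, because control held so few counts. Markers of cholangiocytes, the bile duct cells, moved with it: 8 of 13 tested were called higher and 0 lower, and all 15 summed to 68.7 and 214 CPM in control against 566 and 164 CPM in TAA. That sum overlapped between the groups. Its member Onecut1, a transcription factor that hepatocytes also express, had group means of 78.8 CPM in control and 51.8 CPM in TAA, while Epcam went from 1.39 to 11.2 CPM and Spp1 from 26.1 to 211 CPM. The part of these markers in the Mmp7 difference was not tested. Without both libraries low in Malat1, the log2 fold change of Mmp7 was 7.66. This was the 1 alternative of 21 that lost the call.

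Mmp12 encodes macrophage elastase, which macrophages secrete and which cuts elastin. It stood at 0.503 and 0.103 CPM in control and at 5.63 and 4.99 CPM in TAA. Both TAA libraries were far above both controls and close to each other. The log2 fold change was 4.18 ± 0.66 (SE, edgeR adjusted p = 0.00147), and the call held under each of the 21 alternatives, with log2 values from 3.38 to 5.63 and an adjusted p of at most 0.00879. Of 15 macrophage markers tested, 6 were called higher and 0 lower, among them Gpnmb, a glycoprotein of lipid-laden macrophages, at log2 6.66 ± 0.74 (edgeR adjusted p = 0.000263), and Trem2, a lipid receptor, at 3.23 ± 0.55 (edgeR adjusted p = 0.00227). Other members of the list had lower group means in TAA, though none was called. Clec4f went from 77.6 to 52.8 CPM, Timd4 from 4.09 to 2.21 CPM and Cd5l from 56.5 to 52.1 CPM. All remaining members had higher means in TAA. The macrophage markers summed to 295 and 181 CPM in control and 276 and 291 CPM in TAA, which overlap. Their part in the Mmp12 difference was not tested.

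Mmp13 and Mmp8 encode collagenases, which cut intact fibrillar collagen, and Mmp13 is the main interstitial collagenase of rodents. Mmp13 was scarce, with 1 count in each control library and 12 and 30 counts in TAA, or 0.0457 and 0.0342 against 0.308 and 0.948 CPM. The groups did not overlap, and here TAA replicate 2 was the higher. The ratio of summed counts was 15.2 (95% interval from 3.96 to 130, counting error only), and the log2 fold change was 3.84 ± 0.94 (SE, edgeR adjusted p = 0.0145). The call was lost only without TAA replicate 2 (log2 2.85, edgeR adjusted p = 0.0806, with 0.00386 the lowest over the 21 alternatives). Mmp8, the collagenase of neutrophils, had 31 counts in all, from 0 to 6 in a library, and 4 libraries at 0. Its 2 control libraries held 0 and 1 counts and its TAA libraries 6 and 4, a ratio of 7.24 with a counting interval from 1.03 to 314, and no test was made. Of 12 neutrophil markers 3 were tested and 1 was called higher in TAA, the calcium-binding protein gene S100a9 (log2 2.12 ± 0.58, edgeR adjusted p = 0.0244). All 12 summed to 1.01 and 2.29 CPM in control and 6.12 and 4.83 CPM in TAA, without overlap, and their part in the Mmp8 values was not tested. Ly6g was at 0 in 14 of 16 libraries, Mpo in 12 and Camp in 11. At this depth, differences of Mmp8 between the recovery groups were not detectable.

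Mmp2 encodes gelatinase A, which digests denatured collagen and basement membrane and is made mainly by mesenchymal cells. It stood at 2.74 and 2.02 CPM in control and 23.2 and 10.2 CPM in TAA, without overlap. The log2 fold change was 2.82 ± 0.7 (SE, edgeR adjusted p = 0.0155). The call was lost without TAA replicate 1 (log2 2.09, edgeR adjusted p = 0.102), without control replicate 1 (3.04, edgeR adjusted p = 0.0906) and without control replicate 2 (2.6, edgeR adjusted p = 0.0808). Without both libraries low in Malat1 it was also lost (Mmp2 log2 2.33). The fit with no filter on low counts gave a far lower value (edgeR adjusted p = 1.3e-20) than the DESeq2 test (adjusted p = 0.00017). That value is not read as strength of the call. Mmp14 encodes the membrane-type protease that activates the Mmp2 proenzyme at the cell surface, together with Timp2. It stood at 26.3 and 28.2 CPM in control and 39.5 and 30.9 CPM in TAA. Both TAA libraries lay above both controls, yet the log2 difference of 0.37 (95% interval from -0.1 to 0.84) missed the threshold (edgeR adjusted p = 0.247).

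Mmp19 encodes a secreted protease that cuts basement membrane proteins. It was the MMP with the highest level per length in control liver and it went the other way. Its level was 88.3 and 86.4 CPM in control and 48.5 and 54.9 CPM in TAA. On this scale control replicates were close together and clear of TAA. The TMM factors were 0.674 and 0.911 in control and 1.157 and 1.203 in TAA. In the deposited TPM, a level per transcript length without TMM, Mmp19 stood at 9.91 and 16.02 in control. It stood at 16.14 and 13.71 in TAA, so on that scale the groups overlapped and the control replicates lay apart. The lower level of Mmp19 was thus seen after scaling by TMM or DESeq2 size factors and not in TPM. The change of scale moved other members too: Mmp14 in TPM stood at 3.75 and 6.93 in control and 16.53 and 10.5 in TAA. In TPM, 7SL RNA took 63.2% and 58.9% in control and 42.7% and 54% in TAA, and its part in these shifts was not tested. The log2 fold change of Mmp19 was -0.76 ± 0.17 (SE, n = 2 per group), or 1.69-fold lower (edgeR adjusted p = 0.00925). The call was lost only without TAA replicate 1 (log2 -0.69, edgeR adjusted p = 0.0609, with 8.84e-05 the lowest over the 21 alternatives). Mmp19 overlaps Tmem198b, a protein-coding gene on the opposite strand, which held 49 to 188 counts per library against 1470 to 2525 for Mmp19, and the antisense gene Gm47093, which held 0 to 2.

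Timp1, the inhibitor that injury and inflammation induce, was low: 0.274 and 0.137 CPM in control against 1.31 and 0.727 CPM in TAA. The groups did not overlap, and the log2 difference was 2.32 ± 0.78 (95% interval from 0.62 to 4.02), which was not called (edgeR adjusted p = 0.0535). Timp1 passed the filter through TAA, where it was high, so this p is a description. Timp2, which inhibits MMPs and also links Mmp14 to the Mmp2 proenzyme, stood at 15.5 and 11.3 CPM in control and 35.3 and 18.7 CPM in TAA (log2 1.02 ± 0.4, edgeR adjusted p = 0.0948). Timp3, which binds to the matrix and also blocks ADAM proteases, stood at 19 and 24.1 CPM in control and 40.6 and 29.3 CPM in TAA (log2 0.7 ± 0.28, edgeR adjusted p = 0.094). In Timp1, Timp2 and Timp3 both TAA libraries lay above both controls, and TAA replicate 1 was the higher. Without both libraries low in Malat1 the log2 differences were 2.37 for Timp1, 0.73 for Timp2 and 0.28 for Timp3. Timp1 lies within Syn1 on the opposite strand (3 to 21 counts per library) and Timp3 within Syn3 on the opposite strand (13 to 93 counts), and Timp2 overlaps Cep295nl on the same strand (0 to 18 counts).

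**Figure D2:**
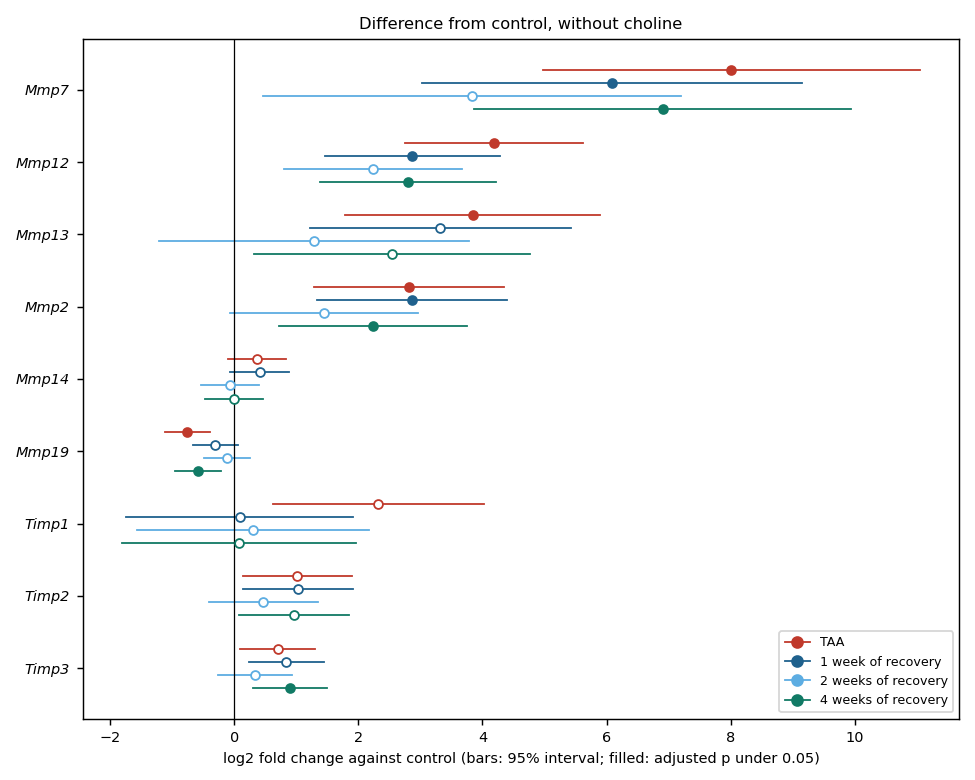
Log2 fold change against control (horizontal axis) of the 9 tested genes in TAA and at 1, 2 and 4 weeks of recovery without choline; bars are 95% intervals, filled points have an adjusted p under 0.05, and n = 2 libraries per group. Mmp7 runs from 8.01 in TAA to 3.83 at 2 weeks and 6.9 at 4 weeks, Mmp19 is below 0 throughout, and the 4 comparisons share the control libraries.

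Recovery was then compared with the end of thioacetamide. At 1 week without choline none of the 9 tested genes was called in edgeR or in DESeq2, with 3 at an unadjusted edgeR p under 0.05, against 3.75% of all tested genes called. Mmp2 stood at 12.5 and 21.9 CPM, overlapping TAA (log2 0.05, 95% interval from -1.32 to 1.41). The 3 genes were Mmp12 at 2.01 and 2.26 CPM (log2 -1.31), Timp1 at 0.0681 and 0.352 CPM (log2 -2.23) and Mmp19 at 75.1 and 66.9 CPM (log2 0.46). Mmp12 and Timp1 at 1 week lay below both TAA libraries and Mmp19 lay above them.

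At 2 weeks without choline, 3 of 9 genes were called, against 11% of all tested genes. Mmp7 fell to 0.808 and 0.992 CPM (log2 -4.18 ± 1.02, edgeR adjusted p = 0.0231), and Mmp12 fell to 1.28 and 1.47 CPM (log2 -1.95 ± 0.56, edgeR adjusted p = 0.0461). Mmp19 rose to 87 and 74.5 CPM (log2 0.64 ± 0.17, edgeR adjusted p = 0.0315). In these 3 genes the 2-week libraries were close together and clear of TAA. Without TAA replicate 1, the fall of Mmp7 was -3.09 on the log2 scale and no longer called. Leaving out either 2-week library without choline also ended the call. Without both libraries low in Malat1 it was also lost (Mmp7 log2 -3.12, edgeR adjusted p = 0.132), and Mmp13 was called lower instead (-3.15, edgeR adjusted p = 0.0188). The call of Mmp12 was lost in 13 of the 21 alternatives, with adjusted p from 0.000922 to 0.244, among them the size factors of DESeq2 (edgeR adjusted p = 0.0512). That of Mmp19 was lost in 6 of them. Mmp13 stood at 0.085 and 0.119 CPM, from 2 and 3 counts (log2 -2.55 ± 0.82, edgeR adjusted p = 0.0669). Timp1 stood at 0.34 and 0.159 CPM (log2 -2.02 ± 0.76, edgeR adjusted p = 0.111).

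At 4 weeks without choline none of the 9 genes was called against TAA in edgeR or in DESeq2, with 2 at an unadjusted edgeR p under 0.05, against 14.9% of all tested genes called. Those 2 were Mmp12 at 1.31 and 2.74 CPM (log2 -1.39) and Timp1 at 0.199 and 0.225 CPM (log2 -2.24), both below both TAA libraries. Mmp7 was at 4.86 and 10.4 CPM and Mmp2 at 7.49 and 14.8 CPM, both overlapping TAA. At 4 weeks with choline, 1 of 9 was called against TAA, with 13.7% of all tested genes called. This was Mmp12, at 0.613 and 1.76 CPM (log2 -2.15 ± 0.57, edgeR adjusted p = 0.0272). Timp1, at 0.0766 and 0.257 CPM, was again not called (log2 -2.57 ± 0.79, edgeR adjusted p = 0.0504).

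Each time of recovery was also set against control, to ask which genes were still away from it. At 1 week, 3 of 9 genes were called, all higher, where 4.26% of all tested genes were called and 1.9% were called higher. They were Mmp2 at log2 2.86, Mmp7 at 6.09 and Mmp12 at 2.87 (edgeR adjusted p = 0.0477, 0.0447 and 0.0438). At 2 weeks none was called in edgeR, with 2 at an unadjusted p under 0.05, while DESeq2 called 2, and 0.399% of all tested genes were called. Mmp7 and Mmp12 were those 2, at log2 3.83 (95% interval from 0.46 to 7.2) and 2.23 (0.8 to 3.67), and the 2-week libraries of both genes lay above both controls. The same held for 6 of the 9 tested genes, against 25.5% of all tested genes. At 4 weeks, 5 of 9 were called, against 19.5% of all tested genes. Mmp7 was at log2 6.9 ± 1.39 (edgeR adjusted p = 0.0137), Mmp12 at 2.8 ± 0.65 (edgeR adjusted p = 0.0191) and Mmp2 at 2.23 ± 0.69 (edgeR adjusted p = 0.044). Mmp19 was lower, with 58.6 and 58.2 CPM (log2 -0.58 ± 0.17, edgeR adjusted p = 0.0354). In TPM Mmp19 stood at 14.17 and 13.43, between its 2 control libraries. Timp3, at 33.3 and 47.2 CPM, was higher (log2 0.9 ± 0.28, edgeR adjusted p = 0.0421). Timp1 at 4 weeks stood between its 2 control libraries (log2 0.08, 95% interval from -1.8 to 1.96).

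The count ratios of Mmp7 to control, with intervals for counting error only, were 75.4 (25.5 to 368) at 1 week, 15.4 (4.93 to 77.4) at 2 weeks and 131 (44.6 to 639) at 4 weeks without choline. Its level at 4 weeks lay above that at 2 weeks in both libraries, 4.86 and 10.4 against 0.808 and 0.992 CPM, a difference between times that was not tested. Mmp2 also had its lowest mean after thioacetamide at 2 weeks without choline, 6.45 ± 0.877 CPM (SD, n = 2). The called differences from control in recovery had edgeR adjusted p from 0.0137 to 0.0499, and each was lost in some fits that left out 1 library. At 1 week the call of Mmp2 was lost in 14, of Mmp7 in 12 and of Mmp12 in 11 of the 16 such fits. At 4 weeks without choline that of Mmp2 was lost in 12, of Timp3 in 10, of Mmp19 in 6, of Mmp7 in 3 and of Mmp12 in 2. Leaving out either library of the recovery group compared ended each of these calls. That of Mmp7 at 4 weeks with choline was lost in 15. Without both libraries low in Malat1, Mmp12 alone stayed called at 1 week, and Mmp12 and Mmp19 at 4 weeks. At 2 weeks the group order of Mmp7, Mmp2, Mmp13, Timp2 and Timp3 had the group without choline directly above control, and in these 5 genes neither 2-week library overlapped control. Neighbouring groups in the order of levels mostly overlapped: Mmp12 in TAA was clear of the next group, as was Timp1 in TAA, and Mmp14 had no gap between any neighbours.

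**Figure D3:**
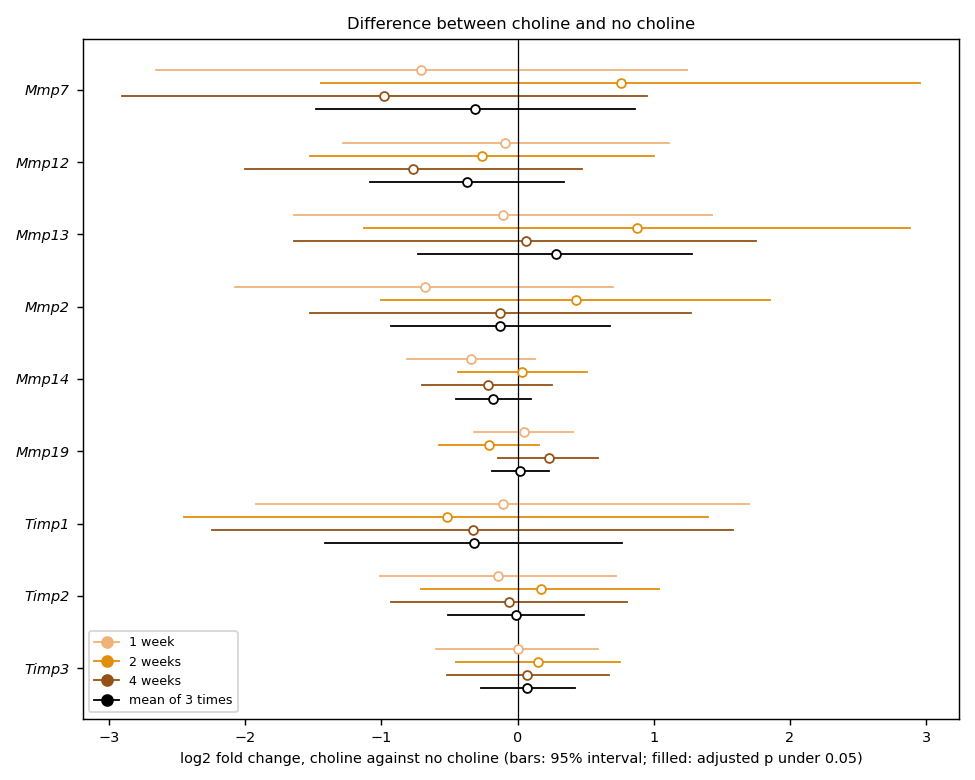
Log2 fold change with against without choline (horizontal axis) of the 9 tested genes at 1, 2 and 4 weeks of recovery and as the mean of the 3 times; bars are 95% intervals and no point is filled, since no adjusted p was under 0.05 (n = 2 libraries per group). Every interval includes 0, and those of Mmp7 are the widest.

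Choline was compared with no choline at each time, to ask whether the supplement altered the proteases or inhibitors during recovery. None of the 9 genes was called at 1, 2 or 4 weeks, as the mean over the 3 times, or for an interaction of choline with time. None had an unadjusted edgeR p under 0.05, and DESeq2 also called 0. Of all tested genes, 0%, 0% and 0.052% were called at the 3 times, 0.0173% for the mean and 0% for the interaction. The mean differences ran from log2 -0.37 for Mmp12 (95% interval from -1.08 to 0.34) to 0.28 for Mmp13 (-0.73 to 1.28). The intervals were narrow for Mmp19 (log2 0.02, from -0.19 to 0.23), Mmp14 (-0.18, from -0.45 to 0.1) and Timp3 (0.07, from -0.27 to 0.42). They were wide for Mmp7 (-0.31, from -1.48 to 0.86) and Timp1 (-0.32, from -1.41 to 0.77). Differences of these genes inside such intervals could go undetected with 2 libraries per group.

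At 4 weeks the choline replicates stood far apart. Replicate 2 held 10.2 times the Mmp7 level of replicate 1 (7.05 against 0.69 CPM), 4.98 times the Mmp2 level (17 against 3.41 CPM) and 2.14 times the Timp2 level (34 against 15.9 CPM). Cholangiocyte markers summed to 240 CPM in the replicate with high Mmp7 and 123 CPM in the other, and their part in the gap was not tested. Against control, 1 of 9 genes was called at 4 weeks with choline, Mmp7 at log2 5.93 ± 1.4 (edgeR adjusted p = 0.0499), with 2.65% of all tested genes called. Without replicate 2 of the choline group the Mmp7 difference was 3.44 and not called. It was also not called with the size factors of DESeq2. Mmp12 in the same comparison stood at log2 2.03 (95% interval from 0.6 to 3.46, edgeR adjusted p = 0.0764).

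To set levels of different genes beside each other, counts were divided by the summed exon length (CPM per kilobase). On this scale Mmp19 and Mmp14 made up 96.9% and 97.9% of the summed level of the 7 MMPs in control, and 42.2% and 65.9% in TAA, where Mmp7 alone reached 23.2 and 7.37 against 13.9 and 15.8 for Mmp19. The MMP sum was 32.4 and 31.9 in control and 54.4 and 34.7 in TAA. It ran from 27.9 to 40.7 in the 12 recovery libraries, so recovery overlapped control. On the deposited TPM scale it was 14.3 and 23.5 in control, 74.6 and 37 in TAA and from 23.6 to 42.2 in recovery, where no recovery library lay below control. The TIMP sum was 6.82 and 6.15 in control, 16 and 9.45 in TAA, and at least 7.77 in each of the 14 libraries outside control. Timp2 and Timp3 made up most of it, and Timp1 took 9.26% and 8.68% in TAA and at most 4.54% in the other libraries.

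The ratio of the MMP sum to the TIMP sum was 4.75 and 5.19 in control and from 2.26 to 3.77 in the other 14 libraries, with no overlap. The group means of the ratio were 4.97 ± 0.311 in control, 3.54 ± 0.184 in TAA, 3.2 ± 0.587, 3.74 ± 0.0495 and 2.86 ± 0.502 at 1, 2 and 4 weeks without choline, and 2.92 ± 0.58, 3.26 ± 0.467 and 2.8 ± 0.764 with choline (SD, n = 2). Libraries with and without choline overlapped at 1 and 4 weeks, and at 2 weeks both choline libraries lay below, at 3.59 and 2.93 against 3.7 and 3.77. No test of the ratio was made. On the TPM scale its group means were 4.69 in control, 3.57 in TAA and from 2.63 to 3.61 in recovery. Library scaling cancels within each ratio, so TPM is no check of the normalisation here. The ratio is one of RNA levels and not of proteins, and Mmp19 holds most of its numerator in control.

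**Figure D4:**
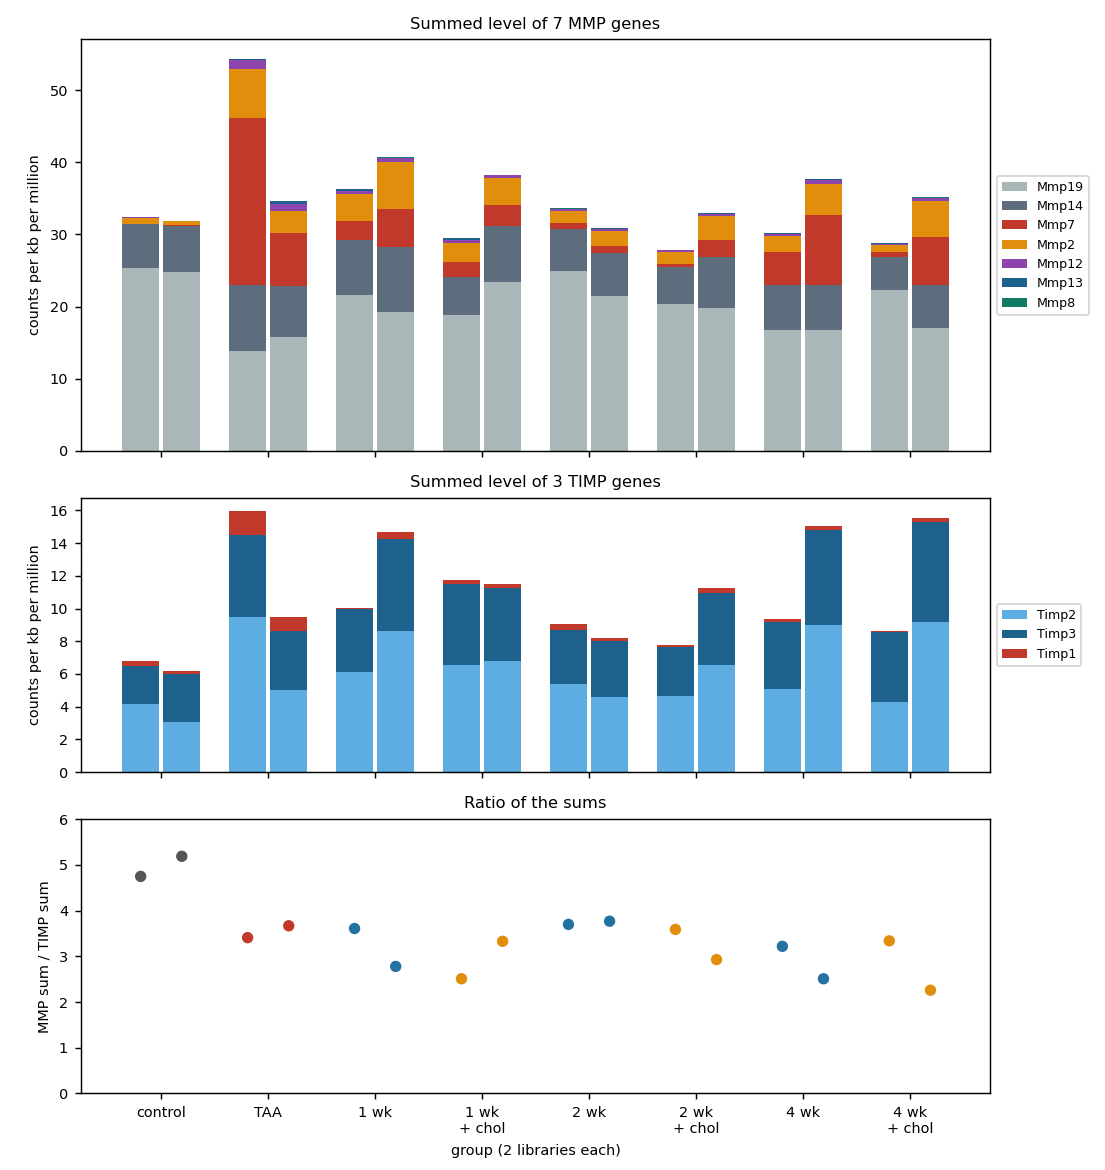
Summed level per exon length of the 7 MMP genes (top) and the 3 TIMP genes (middle), in CPM per kilobase on linear axes from 0, and their ratio (bottom), with replicates 1 and 2 side by side in each group. The ratio is 4.75 and 5.19 in control and at most 3.77 elsewhere, and Mmp7 adds the largest part of the MMP sum in TAA replicate 1.

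Among 17 further genes of the MMP and TIMP families, 8 were tested. After thioacetamide Mmp9, gelatinase B, was higher (0.274 and 0.205 CPM in control, 1.03 and 0.885 CPM in TAA; log2 1.99 ± 0.63, edgeR adjusted p = 0.0446). Mmp15, a membrane-type relative of Mmp14, was lower (41.1 and 52.6 CPM in control, 36.1 and 28.5 CPM in TAA; log2 -0.54 ± 0.16, edgeR adjusted p = 0.0346). Like Mmp19, Mmp15 was higher again at 2 weeks without choline than in TAA (log2 0.66 ± 0.16, edgeR adjusted p = 0.0226). Mmp15 was the 1 gene of the 8 called at 1 week against TAA (0.74 ± 0.16, edgeR adjusted p = 0.0283) and at 4 weeks with choline against TAA (0.84 ± 0.16, edgeR adjusted p = 0.00646). Mmp24, a membrane-type MMP, was at 0.72 and 0.442 CPM in TAA and at 0 in both 2-week libraries without choline. It had at most 28 counts in a library and passed the filter through TAA, where it was high. Its difference from TAA is therefore a description. Timp4, the remaining inhibitor, had at most 1 count in a library.

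The substrates and partners of the MMPs were read from lists chosen with earlier results of these data known. Their counts in TAA against control stand beside the 10% of all tested genes called higher and the 11% called lower. Of 16 matrix substrates tested, 12 were higher and 0 lower in TAA against control (median log2 1.51, against 0.03 over all tested genes), among them the fibrillar collagen chains Col1a1 (log2 4.22 ± 0.52, edgeR adjusted p = 0.000421) and Col3a1 (2.5 ± 0.4, edgeR adjusted p = 0.00157). At 2 weeks without choline 6 of these 16 were lower than in TAA and 0 higher, with 11% of all tested genes called. At 4 weeks without choline 5 of the 16 were called higher than control, with 19.5% of all tested genes called. Of 16 ADAM and ADAMTS proteases, relatives that shed membrane proteins or cut proteoglycans, 7 were higher and 0 lower in TAA (median log2 1.1), with Adamts12 at log2 2.98 ± 0.62 (edgeR adjusted p = 0.00688).

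Of 13 genes of the plasminogen system, whose protease plasmin activates MMP proenzymes, 2 were higher and 4 lower in TAA (median log2 -0.11). The activator Plat rose (log2 3.56 ± 0.79, edgeR adjusted p = 0.00923) and so did the urokinase receptor Plaur (2.63 ± 0.59, edgeR adjusted p = 0.0098), while plasminogen itself, Plg, made by hepatocytes, fell (-1.07 ± 0.2, edgeR adjusted p = 0.00389). Of 8 lysosomal and uptake genes for collagen, 3 were higher and 1 lower (median log2 -0.01), with the collagen receptor Mrc2 at log2 2.27 ± 0.56 (edgeR adjusted p = 0.0145) and the protease Ctsk at 2.01 ± 0.48 (edgeR adjusted p = 0.0131). Of 10 markers of stellate cells and myofibroblasts, which deposit scar collagen and make much of the liver's Mmp2, 1 was higher and 1 lower in TAA. These 10 summed to 299 and 234 CPM in control and 292 and 255 CPM in TAA, which overlap. Reln held the largest part of this sum, with group means of 130 CPM in control and 123 CPM in TAA. Acta2 (1.69 to 5.03 CPM), Pdgfrb (11.5 to 22 CPM), Lrat, Des and Hand2 had higher means in TAA. Tagln, Rgs5, Colec11 and Ngfr had lower means, as did Reln. The part of these markers in the Mmp2 difference was not tested. Hepatocyte markers were lower in 4 of 10 and endothelial markers in 3 of 8, with 1 of the 8 higher, and lymphocyte markers were lower in 1 of 8.

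The genes whose levels followed most closely the 5 members called in TAA against control were taken by Pearson correlation of log2 CPM over the 16 libraries, among 9404 genes with a mean of at least 5 CPM. These are descriptions over libraries that share groups, depth and the 2 libraries low in Malat1. Closest to Mmp2 were Loxl1, a cross-linker of elastin and collagen, the collagen receptor Mrc2 and Sema5a, each at r = 0.97. Closest to Mmp7 were Thbs1, encoding thrombospondin, and Iqgap1 at 0.95 and Abr at 0.94. Closest to Mmp12 were the collagen receptor Ddr1 at 0.93, and Col1a2 and Cd63 at 0.9. Closest to Mmp13 were the receptor kinase Axl at 0.9, Qtrt2 at 0.84 and Zfp280c at 0.82. Closest to Mmp19 were Sdr42e1 at 0.95, Caprin1 at 0.94 and Apol7a at 0.93. Without the 2 libraries low in Malat1 the closest gene was the same for Mmp12 and another one for Mmp2 (Epcam), Mmp7 (Olfml3), Mmp13 (Setd7) and Mmp19 (Gsap).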

How the data were processed

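RNA of 16 mouse liver libraries was extracted with TRIzol, depleted of ribosomal RNA and made into directional libraries, per the labels' protocols. The authors deposited a table of expected counts per gene, not normalised, with 8.7% of values fractional, and a table of TPM. Per the submitters' processing notes, which give no roles, STAR 2.7.10b, RSEM 1.3.3 and DESeq2 1.36.0 were used with GRCm38. Not given in the sources used here were the annotation release and whether counting used strand, so reads of overlapping genes are uncertain. There were 2 deposited columns that matched no sample, and they were not used. Deposited TPM served only as an alternative scale for Mmp19 and Mmp14 and for the MMP and TIMP sums and their ratio. In it 7SL RNA took 42.7% to 63.2%.

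Expected counts were rounded. In edgeR 4.0.16 (R 4.3.3) filterByExpr kept 17292 genes, libraries were scaled by TMM, and 1 robust quasi-likelihood fit took the means of the 8 groups, with 8 residual degrees of freedom. Tests were two-sided, adjusted by Benjamini-Hochberg over all tested genes within each of 14 comparisons, and tested on simulated data first. Levels per length divide counts by exon length from GENCODE M21 (GRCm38). Replicates of a group differed by more than counting noise, with chi-square per degree of freedom from 13.5 to 222, so none was taken for a library deposited a second time. Deposited starts count from 0, and 1 was added.

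The 10 members and the 13 lists were chosen with earlier results of these data known. All members are named. From the other lists the rule took called genes with the smallest p, up to 4 for TAA against control and 2 elsewhere, and any gene of the MMP and TIMP families. Alternatives were size factors and the test of DESeq2 1.42.0, no filter on low counts, a replicate block, each library left out, and both libraries low in Malat1 left out.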

Additional observations from a re-analysis of the deposited data

How the results depend on the processing

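Of 18 called differences of the members, all 18 kept their direction under the 21 alternatives, and 1 (Mmp12 in TAA against control) kept its call under every one. With 2 libraries per group, leaving out 1 library gave from 3 to 6 called members for TAA against control. It gave from 0 to 3 at 1 week, 0 to 0 at 2 weeks and 0 to 5 at 4 weeks without choline against control, and 0 to 1 at 4 weeks with choline against control. Against TAA it gave 0 to 0 at 1 week, 0 to 4 at 2 weeks and 0 to 2 at 4 weeks without choline, and 0 to 3 at 4 weeks with choline. For each comparison of choline with no choline it gave 0 to 0. In fits without 1 library of a group, the lone library is assumed to vary like the other groups. With no filter on low counts the members called were 8 for TAA against control, 6 at 1 week, 3 at 2 weeks without choline and 5 at 4 weeks with choline against control, and 1 at 1 week, 3 at 4 weeks without choline and 3 at 4 weeks with choline against TAA; the cause was not tested. The DESeq2 test called 2 at 2 weeks without choline and 4 at 4 weeks with choline against control. DESeq2 size factors called 0 at 4 weeks with choline against control. Without both libraries low in Malat1 the counts were 3 for TAA, 1 at 1 week and 2 at 4 weeks without choline and 0 at 4 weeks with choline, each against control. On the TPM scale the MMP to TIMP ratio at 2 weeks without choline was 3.61 in place of 3.74, in control 4.69 in place of 4.97 and at 4 weeks with choline 2.63 in place of 2.8. Library scaling cancels in this ratio, so these values do not test the normalisation. Replicate numbers were not treated as pairs in the main fit. Over 28 pairs of groups the correlation of same-numbered deviations ran from -0.21 to 0.59 (median 0.04). It passed 0.1 in 8 of them, and both libraries low in Malat1 are first replicates. With the replicate number as a block, 2 members (Mmp7 and Timp3) were called at 4 weeks with choline against control. Depth limits Mmp8, Mmp13 and Timp1, with at most 6, 30 and 51 counts in a library.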
